A study of Mus musculus with 16 samples.

Results

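The genes described here are 46 members of the ATF4 arm of the integrated stress response, read in islets from diabetic *db/db* mice after culture with DMSO or adjudin. They were chosen by symbol from the table of gene counts, as known or likely targets of the transcription factor ATF4 together with *Atf4* itself and the cytosolic tRNA synthetases most often listed with them, and they are 46 of the 54532 genes in the table. The symbols matched 47 rows, because *Ddit3* has a second row with 0 reads in every sample, and the row with reads was used. By role the genes fall into 7 groups: 7 transcription factors, 6 feedback regulators, 7 enzymes of serine synthesis and mitochondrial one-carbon metabolism, 5 other enzymes of amino acid and carbon metabolism, 6 amino acid transporters, 4 secreted or surface proteins and 11 cytosolic tRNA synthetases.

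The integrated stress response starts when kinases that sense unfolded protein, missing amino acids, haem shortage or double-stranded RNA phosphorylate the initiation factor eIF2. Translation then falls for most mRNAs and rises for a few, among them that of ATF4, which enters the nucleus and raises genes for amino acid synthesis, uptake and tRNA charging. Beta cells make very large amounts of one secreted protein, and the kinase PERK, which senses unfolded protein in the endoplasmic reticulum, is needed for their survival. Because ATF4 is controlled largely at translation, the level of its mRNA says little about its protein, and the mRNA of its targets is the usual readout.

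All mice were male *db/db* mice of the strain BKS(D)-Leprdb/JOrlRj, aged 12 to 13 weeks, which have no working leptin receptor. Islets were handpicked, left overnight, and then kept for 1 day at 11 mmol/l glucose in RPMI medium that held DMSO, the solvent, or 10 µmol/l adjudin, a small molecule of the indazole carbohydrazide class first studied in the testis. Each treatment had 8 samples, each from 1 to 2 mice, and every batch from 1 to 8 held 1 sample of either treatment. By the study's methods, batches of islets that looked aberrant were not used, and no lean mice are among the samples described here. The samples held 24190102 to 34471164 counted reads, of which the 46 genes took 0.546% to 0.627%. As a check of the tissue, the insulin genes *Ins2* and *Ins1* had medians of 53290 and 13470 CPM with DMSO (counts scaled to library size by edgeR).

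ATF4 binds DNA as a dimer with a C/EBP protein at a composite element, here searched as the 8 letters TGATGNAA, or TTNCATCA on the other strand. The promoters read were the RefSeq windows (GRCm38.p6) from 250 bases before to 50 bases after each start site, available for 37 of the 46 genes. The letters occurred in 14 of these 37 genes (37.8%), against 4.51% of all 27025 RefSeq genes. By role, they were found in 5 of 7 tRNA synthetases, 3 of 4 other amino acid and carbon enzymes, 2 of 5 feedback regulators, 2 of 4 secreted or surface proteins and 2 of 7 transcription factors, and in none of the 6 serine and one-carbon enzymes or the 4 transporters. The stretches of 9 genes are shown because these letters were more frequent here than among all promoters. The genes were chosen as known or likely ATF4 targets, so the higher share is no test of that choice. The matching letters are in capitals, with 11 bases on either side, 5′ to 3′ on the strand of the gene.
*Atf3*: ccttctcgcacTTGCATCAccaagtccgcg
*Vldlr*: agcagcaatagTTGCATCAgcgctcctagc
*Nupr1*: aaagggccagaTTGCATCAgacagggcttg
*Chac1*: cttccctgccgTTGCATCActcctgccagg
*Asns*: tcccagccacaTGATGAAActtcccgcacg
*Fgf21*: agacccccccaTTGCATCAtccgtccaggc
*Gars*: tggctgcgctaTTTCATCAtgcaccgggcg
*Iars*: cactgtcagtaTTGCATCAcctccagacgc
*Tars*: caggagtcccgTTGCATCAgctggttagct

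Of the 9 stretches, 7 hold the letters TTGCATCA, while *Gars*, a tRNA synthetase gene, holds TTTCATCA and *Asns*, the asparagine synthetase gene, holds its reverse complement TGATGAAA. The *Atf3* stretch lies at chr1:191183425-191183454 on the minus strand, in an intron of the longer gene model, with the first of its capital letters at -110 from the RefSeq start site. The *Vldlr* stretch lies at chr19:27216809-27216838 on the plus strand, overlapping an untranslated or noncoding exon by GENCODE vM21, with the first of its capital letters at -200. The place of the 15 matches in the 14 genes was read from the 30 bases of each stretch, flanks included. Of these stretches, 8 overlapped an untranslated or noncoding exon of some GENCODE transcript and 1 a coding exon. A further 5 lay outside the gene and 1 in an intron. An overlap can rest on the flanking bases alone. A match is only a run of letters, and binding was not measured.

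In *db/db* islets with DMSO, these genes were expressed over a wide range of levels, here given as CPM per kilobase of gene length so that genes can be set side by side. The stress-induced chromatin protein gene *Nupr1* stood highest (median 210.5 CPM per kb), followed by *Ddit4*, whose product REDD1 restrains the growth kinase mTORC1 (154.5), *Atf4* (143.5) and its relative *Atf5* (112.9). The highest of the other groups were the asparaginyl-tRNA synthetase gene *Nars* (92.7 CPM per kb), the transporter heavy chain gene *Slc3a2* (76.9), *Asns* (62.8), the mitochondrial folate enzyme gene *Mthfd2* (31.5) and the hormone gene *Gdf15* (5.65). At the low end were the cysteine-forming enzyme gene *Cth* (1.196 CPM per kb), the glycoprotein gene *Stc2* (2.47), the cationic amino acid transporter gene *Slc7a3* (2.96), the glycine transporter gene *Slc6a9* (3.50) and the hormone gene *Fgf21* (3.79). All 46 genes passed the filter on low counts.

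**Figure D1:**
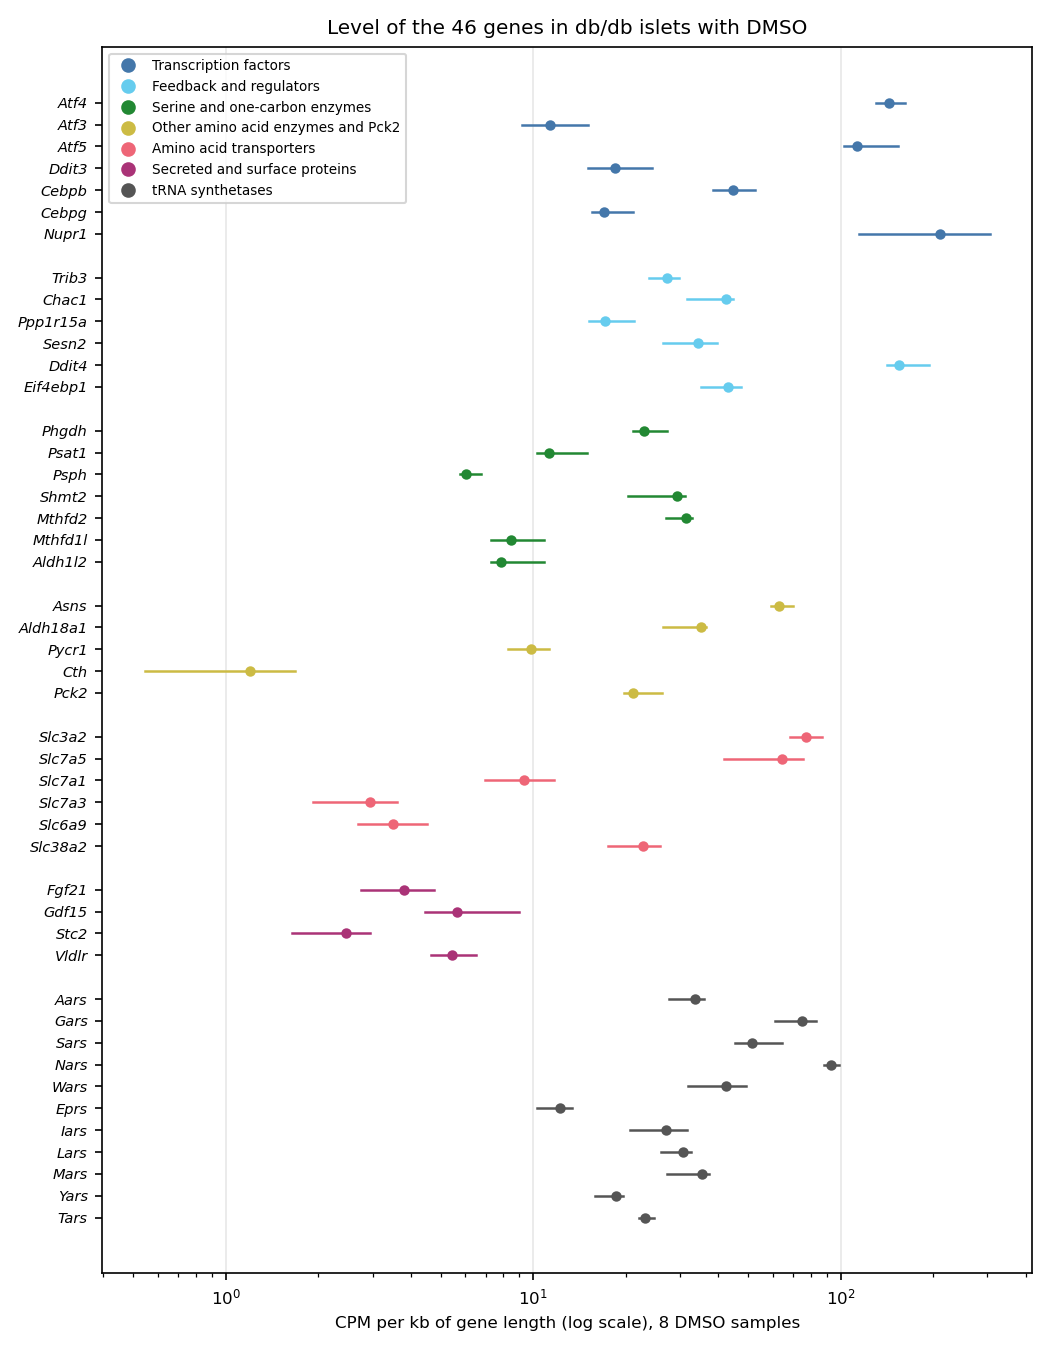
Level of the 46 genes in the 8 DMSO samples, in CPM per kb of gene length on a log axis, grouped by role; points are medians and lines run from the lowest to the highest sample. *Nupr1*, with a median of 210.5 CPM per kb, stands highest and *Cth*, with 1.196, lowest.

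The main question was whether adjudin moved these genes. Each gene was fitted by edgeR's quasi-likelihood test with batch and treatment as terms, and p values were adjusted over the 16910 tested genes. With adjudin, 2 of the 46 genes rose and 1 fell at an adjusted p under 0.05, which is 6.52% of them. The share was 5.24% for all tested genes (2.17% up and 3.07% down) and 7.33% for those with a mean log2 CPM over 4. Of the 46, the genes that rose were *Aldh1l2*, of mitochondrial folate metabolism, and *Vldlr*, a lipoprotein receptor. The gene that fell was *Atf3*, a stress-induced transcription factor. The other 43, *Atf4* and all 11 tRNA synthetases among them, did not pass. Without the batch term in the model none of the 46 genes passed. Before adjustment, 7 genes were higher and 3 lower at p under 0.05, where 10.1% and 10.9% of all tested genes were. The median log2 fold change of the 46 was 0.03 against 0.00 for all tested genes, with 29 higher and 17 lower.

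The sizes were small. The median absolute log2 fold change was 0.04 for these genes, 0.07 for all tested genes and 0.05 for those with a mean log2 CPM over 4. The approximate 95% interval of the change lay within 1.1-fold in either direction for 30 of the 46 genes, within 1.15-fold for 39 and within 1.25-fold for 42. The genes whose interval passed 1.25-fold were *Atf3*, *Gdf15*, *Cth* and *Fgf21*, the last 3 of which had the widest intervals and are among the genes with the fewest reads.

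**Figure D2:**
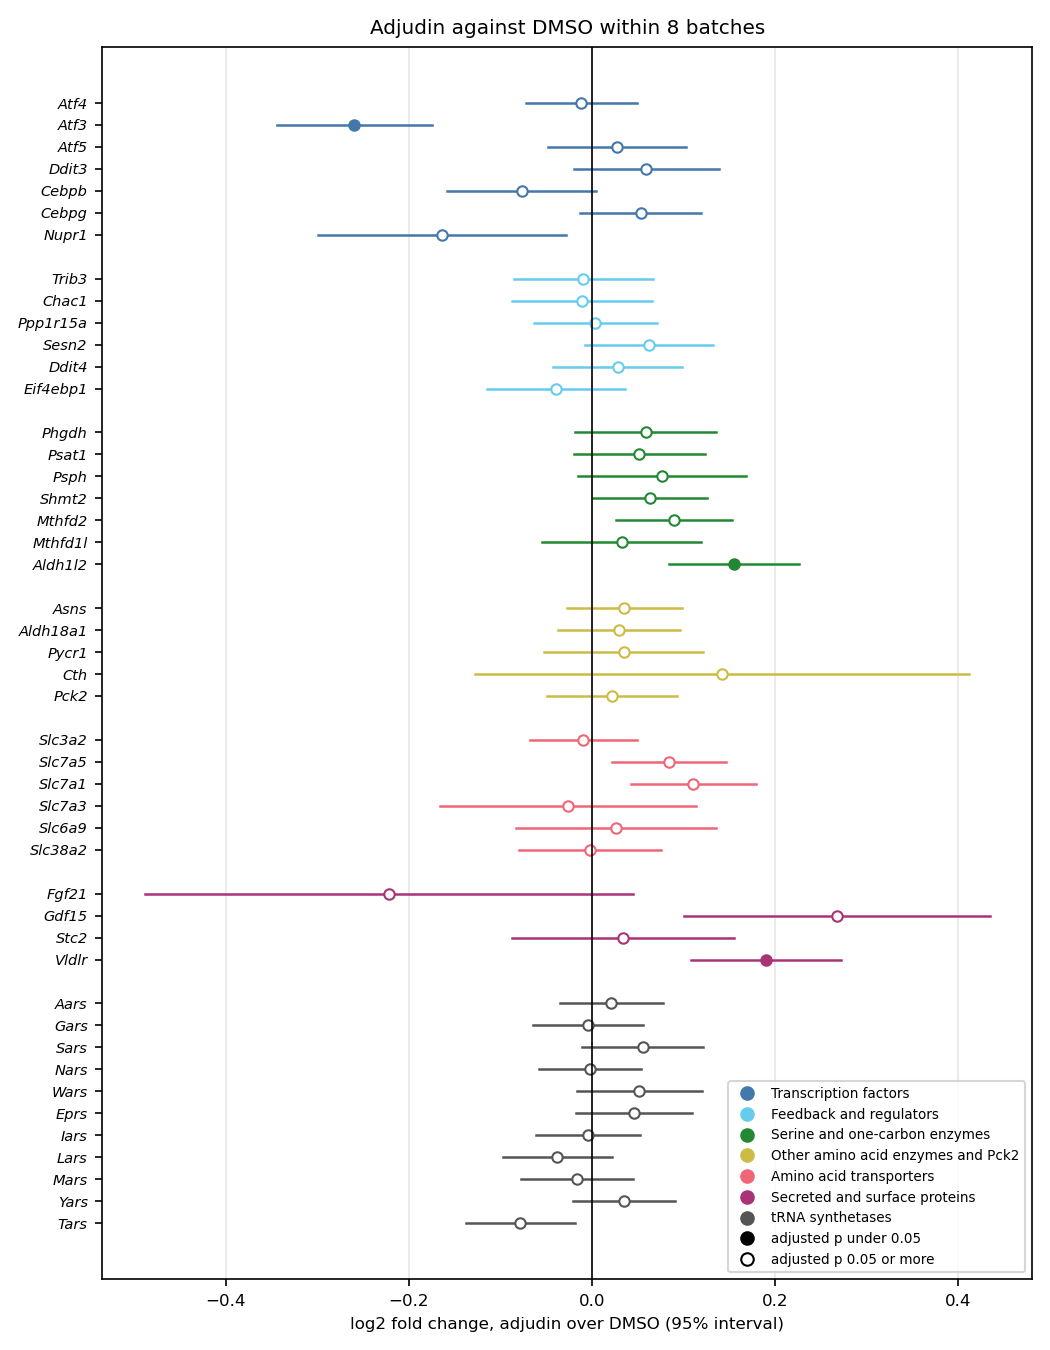
Log2 fold change of the 46 genes, adjudin over DMSO, by role, with the approximate 95% interval from edgeR; filled points have an adjusted p under 0.05. Most intervals include 0, and *Atf3* (-0.26), *Aldh1l2* (0.16) and *Vldlr* (0.19) are the genes that passed.

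Among the transcription factors, *Atf3* was the only one of 7 that passed. *Atf3* encodes a bZIP protein induced by many stresses, which acts on many promoters as a repressor. It ranged from 19.9 to 32.5 CPM with DMSO (median 24.5) and from 17.7 to 27.8 CPM with adjudin (median 20.2). The groups overlapped, yet the adjudin sample was below the DMSO sample of its own batch in 8 of 8 batches, by log2 differences from -0.34 to -0.16, a pattern shown by 3.15% of all tested genes. In the model it fell by 16.5% (log2 fold change -0.26, standard error 0.04, edgeR adjusted p = 0.00116), and it passed with any single batch left out (largest adjusted p = 0.00679).

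*Atf4* itself, the centre of the response, ranged from 308 to 382 CPM with DMSO (median 338) and from 321 to 385 with adjudin (median 334). Its groups overlapped almost completely, and its log2 fold change was -0.01 with a 95% interval from -0.07 to 0.05 (edgeR adjusted p = 0.856). *Ddit3*, which encodes CHOP, a factor tied to cell death when stress lasts, ranged from 25.9 to 41.5 CPM with DMSO (median 31.5) and from 29.3 to 43.2 with adjudin (median 32.3). Its log2 fold change was 0.06, with an interval from -0.02 to 0.14 (edgeR adjusted p = 0.390), and its last bases overlap those of *Mars* on the other strand. *Nupr1* ranged from 289 to 767 CPM with DMSO (median 529) and from 317 to 649 with adjudin (median 435). It was lower with adjudin in 6 of 8 batches, with a log2 fold change of -0.16 that did not pass (edgeR adjusted p = 0.149). The other members were *Atf5* (0.03) and the C/EBP genes *Cebpb* (-0.08) and *Cebpg* (0.05), whose products pair with ATF4, all given as log2 fold changes that did not pass.

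Markers of other cells of the islet preparation moved in the same samples. Of 10 macrophage markers, 8 were downregulated and none rose. Their summed level went from 569 to 1167 CPM with DMSO (median 894) to 545 to 802 CPM with adjudin (median 623), and was lower with adjudin in all 8 batches. Of 10 stellate cell and fibroblast markers, 6 were downregulated. Their summed level was 9714 to 19930 CPM with DMSO (median 12420) and 9289 to 17810 CPM with adjudin (median 11650). It was higher with adjudin only in batch 5 (11620 CPM with DMSO and 11730 with adjudin). Of 9 beta cell markers 3 were upregulated (*Pdx1*, *Nkx6-1* and *G6pc2*). None of 6 alpha, 4 delta, 8 acinar and 5 ductal cell markers passed (unadjusted p under 0.05 in 0, 3, 4 and 4 of them), and 1 of 6 endothelial markers rose. In batch 5 the macrophage sum was nearly level (569 CPM with DMSO and 557 with adjudin) and the log2 difference of *Atf3* was -0.17. In batch 6 the sum went from 707 to 545 CPM with a difference of -0.16 for *Atf3*, and in batch 8 from 1167 to 802 CPM with -0.22. In batch 1 the sum went from 1022 to 619 CPM with -0.33, and in batch 2 from 979 to 619 CPM with -0.34. In batch 3 the change was from 955 to 761 CPM with -0.34. Batch 4 went from 802 to 628 CPM with -0.23, and batch 7 from 832 to 636 CPM with -0.27. In whole islets, fewer cells of a type and less RNA per cell cannot be told apart, and the part of these cells in the fall of *Atf3* was not tested.

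**Figure D3:**
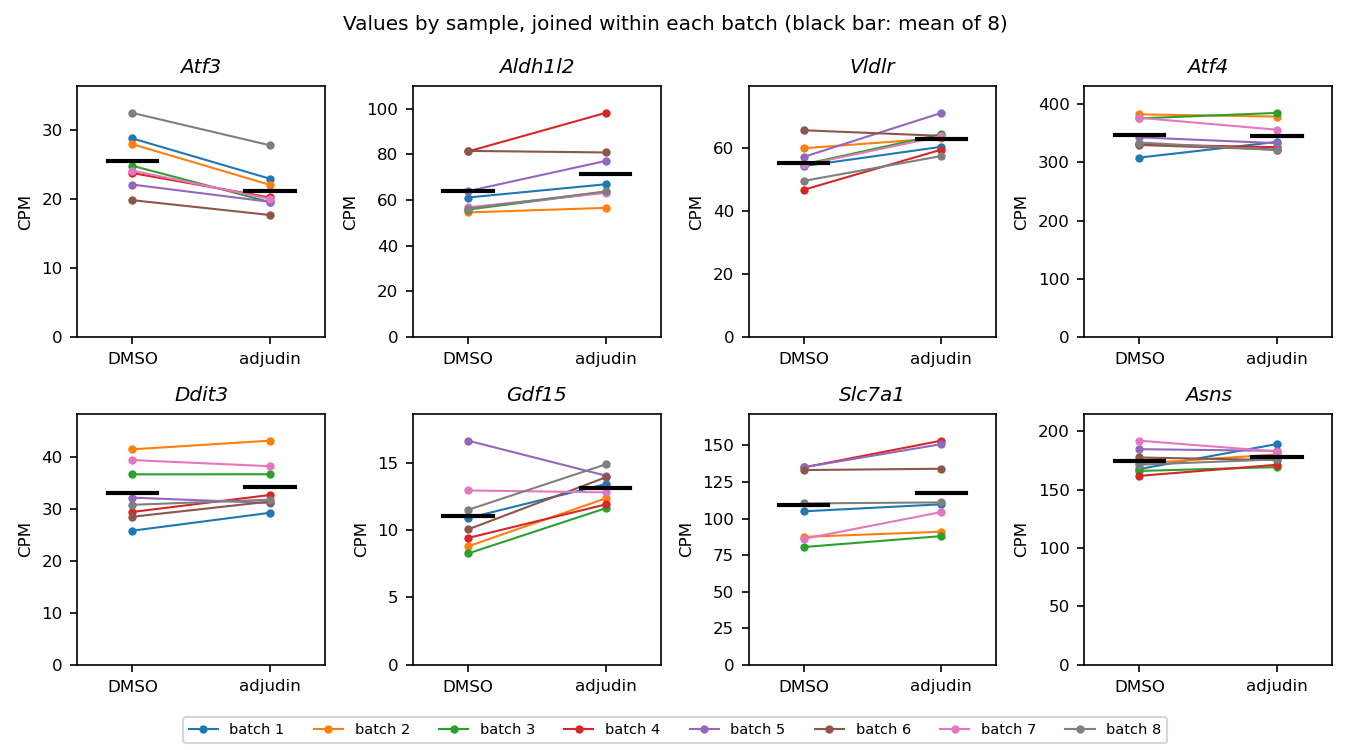
CPM of the genes that passed (*Atf3*, *Aldh1l2*, *Vldlr*) and of *Atf4*, *Ddit3*, *Gdf15*, *Slc7a1* and *Asns* in each of the 16 samples, with a line joining the DMSO and adjudin samples of a batch, a black bar at the mean of 8 and axes from 0. Every line falls for *Atf3*, and 7 of 8 rise for *Aldh1l2* and for *Vldlr*.

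The feedback regulators did not pass in either direction (0 of 6, also at an unadjusted p under 0.05). They comprise *Trib3*, a pseudokinase that restrains ATF4, *Chac1*, which breaks down glutathione, *Ppp1r15a*, whose product GADD34 brings a phosphatase to eIF2, *Ddit4*, *Eif4ebp1*, which holds back cap-dependent translation, and *Sesn2*, a leucine sensor. Their log2 fold changes lay between -0.04 and 0.06. *Sesn2*, with the smallest p of the group, ranged from 91.95 to 138 CPM with DMSO (median 120) and from 96.3 to 137 with adjudin (median 119), a log2 fold change of 0.06 (edgeR adjusted p = 0.297). *Ddit4* ranged from 248 to 340 CPM with DMSO (median 271) and from 246 to 338 with adjudin (median 284), a log2 fold change of 0.03 (edgeR adjusted p = 0.677). For both genes the ranges were nearly the same under either treatment.

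The serine and one-carbon enzymes all lay on the same side. *Phgdh*, *Psat1* and *Psph* make serine from a glycolytic intermediate, and *Shmt2*, *Mthfd2*, *Mthfd1l* and *Aldh1l2* pass its one-carbon unit along mitochondrial folate. All 7 had log2 fold changes above 0, from 0.03 to 0.16, under every fit that was run, with a median of 0.06, where 51.4% of all tested genes were above 0. Of the 7, *Aldh1l2* passed the test and *Mthfd2* and *Shmt2* had an unadjusted p under 0.05. Summed over the 7 genes, the level was 373 to 480 CPM with DMSO (median 431) and 401 to 502 with adjudin (median 456), higher with adjudin in 8 of 8 batches. The sum of the secreted and surface group was also higher in 8 of 8 batches and that of the transporters in 7. The sums of the other role groups were higher in 3 to 5. Genes of a group share their samples, so their common direction is not independent.

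*Aldh1l2*, the mitochondrial enzyme that releases one-carbon units as carbon dioxide while making NADPH, ranged from 54.6 to 81.5 CPM with DMSO (median 58.9) and from 56.6 to 98.1 with adjudin (median 65.3). The ranges overlapped, and adjudin was higher in 7 of 8 batches, batch 6 being the exception at -0.01. It rose by 11.3% (log2 fold change 0.16, standard error 0.03, edgeR adjusted p = 0.0138), but without batch 4 the adjusted p was 0.0529. *Aldh1l2* overlaps *D10Wsu102e* on the other strand over part of its length, a gene with 18541 reads over the 16 samples and a log2 fold change of 0.03. No source used here gives the strand setting of the counting, so reads of the 2 genes cannot be told apart where they overlap. Of the 46 genes, 19 overlap a gene on the other strand, in 11 cases one with at least 160 reads over the 16 samples. *Mthfd2* ranged from 94.5 to 115 CPM with DMSO (median 110) and from 102 to 120 with adjudin (median 115). It was higher with adjudin in 7 of 8 batches, with a log2 fold change of 0.09 that did not pass (edgeR adjusted p = 0.0961).

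The 5 other enzymes were likewise all above 0 in every fit, and none passed (0 of 5, also at an unadjusted p under 0.05). They are *Asns*, *Aldh18a1* and *Pycr1* of proline synthesis, *Cth*, and *Pck2*, the mitochondrial enzyme that makes phosphoenolpyruvate. Their log2 fold changes ran from 0.02 to 0.14 with a median of 0.03, the largest being that of *Cth*, at only 1.52 to 4.68 CPM with DMSO. *Asns*, among the best known targets of ATF4, ranged from 162 to 192 CPM with DMSO (median 172) and from 169 to 189 with adjudin (median 178). The adjudin range lay inside that of DMSO, and the log2 fold change was 0.04 with an interval from -0.03 to 0.10 (edgeR adjusted p = 0.532).

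Of the 6 transporters none passed, and 2 had an unadjusted p under 0.05, both higher with adjudin. *Slc7a1*, the main carrier of arginine and lysine, ranged from 80.6 to 135 CPM with DMSO (median 108) and from 88.0 to 153 with adjudin (median 111). It was higher with adjudin in 8 of 8 batches, as were 2.22% of all tested genes, with a log2 fold change of 0.11 (standard error 0.03, edgeR adjusted p = 0.0592). DESeq2 with the batch term gave it an adjusted p of 0.0338. *Slc7a5*, the light chain of the carrier of leucine and other large neutral amino acids, had a log2 fold change of 0.08 (edgeR adjusted p = 0.110). Its heavy chain gene *Slc3a2* ranged from 242 to 306 CPM with DMSO (median 271) and from 240 to 285 with adjudin (median 273), a log2 fold change of -0.01 (edgeR adjusted p = 0.883). *Slc7a3* (-0.03), *Slc6a9* (0.03) and the glutamine carrier gene *Slc38a2* (-0.00) lay near 0 on the log2 scale, and the sign of each of these changed under some fits.

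Among the secreted and surface proteins, *Vldlr* passed. *Vldlr*, the very low density lipoprotein receptor, ranged from 46.6 to 65.5 CPM with DMSO (median 54.6) and from 57.3 to 71.0 with adjudin (median 63.3). The groups overlapped, and adjudin was higher in 7 of 8 batches, batch 6 being again the exception at -0.04. It rose by 14.1% (log2 fold change 0.19, standard error 0.04, edgeR adjusted p = 0.00947) and passed with any single batch left out (largest adjusted p = 0.0348).

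*Gdf15*, a hormone released by stressed cells that lowers appetite, had the largest log2 fold change of the 46 genes, 0.27 (standard error 0.08), and did not pass (edgeR adjusted p = 0.0606), though it did with DESeq2 (adjusted p = 0.0276). It ranged from 8.26 to 16.6 CPM with DMSO (median 10.5) and from 11.6 to 14.9 with adjudin (median 13.1). The DMSO sample of batch 5, at the top of the DMSO range, lay above all the adjudin samples, and adjudin was higher in 6 of 8 batches, the exceptions being batches 5 and 7. *Fgf21*, a hormone of fasting and stress, was at 2.62 to 4.51 CPM with DMSO, with a log2 fold change of -0.22 (edgeR adjusted p = 0.334), and *Stc2* had 0.03 (edgeR adjusted p = 0.785).

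The 11 cytosolic tRNA synthetases lay close to their DMSO levels. None passed, 5 were higher and 6 lower, and the log2 fold changes ran from -0.08 to 0.06 with a median of -0.00. The 95% interval lay within 1.1-fold for 10 of them and within 1.15-fold for all 11. *Tars*, the threonyl-tRNA synthetase gene, ranged from 130 to 145 CPM with DMSO (median 136) and from 124 to 141 with adjudin (median 129). It was lower with adjudin in 8 of 8 batches and had an unadjusted p under 0.05, with a log2 fold change of -0.08 (edgeR adjusted p = 0.121). *Nars*, the most abundant per kilobase, ranged from 233 to 260 CPM with DMSO (median 244) and from 233 to 257 with adjudin (median 244), a log2 fold change of -0.00 (edgeR adjusted p = 0.978). The others were *Aars*, *Gars*, *Sars*, *Wars*, *Eprs*, *Iars*, *Lars*, *Mars* and *Yars*, each named for the amino acid or acids it charges. Their edgeR adjusted p values were 0.328 or more. DESeq2 and limma-voom with the batch term also called 0 of the 11 synthetases, 0 of the feedback regulators and 0 of the 5 enzymes described with *Asns*.

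Set against the change with adjudin, the 14 genes with the promoter letters had a median log2 fold change of -0.00, and of these *Atf3* and *Vldlr* passed in opposite directions. The 23 genes with a promoter window and without the letters had a median of 0.05 and none passed, and *Aldh1l2* was among the 9 genes with no window.

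Most of these genes differed between batches of islets. In the same fit, 41 of the 46 genes (89.1%) differed between batches at an adjusted p under 0.05, against 67.8% of all tested genes and 86.5% of those with a mean log2 CPM over 4. The genes that did not were *Psph*, *Asns*, *Fgf21*, *Nars* and *Tars*. The largest batch F statistics belonged to *Slc7a5* (48.8), *Slc7a1* (44.8), *Iars* (35.5), *Aldh1l2* (27.5) and *Shmt2* (25.6). These genes were picked for the size of the batch term after it was seen.

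Batches 2 and 3 stood apart for many of them. *Slc7a5* was at 155 CPM in both batches with DMSO and at 227 to 279 CPM in the other 6, and with adjudin at 177 and 170 CPM against 241 to 275. *Iars* was at 110 and 109 CPM in these batches with DMSO and at 131 to 167 in the others. For both genes batches 2 and 3 were the lowest under either treatment, with no overlap with the other 6 batches. The DMSO samples of batches 2 and 3 were the lowest of the 8 for 17 of the 46 genes (37.0%), against 15% of all tested genes, and with adjudin again for 17 (37.0%), against 18.1%. Under both treatments these included the synthetase genes *Aars*, *Gars*, *Sars*, *Wars*, *Iars*, *Mars* and *Yars*, the carrier genes *Slc7a5*, *Slc3a2* and *Slc6a9*, and *Sesn2*, *Shmt2* and *Aldh18a1*.

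The transcription factors were mixed. With DMSO, *Atf4*, *Ddit3*, *Cebpg* and *Nupr1* were above their mean in both batches, *Atf5* and *Cebpb* below it in both, and *Atf3* above it in batch 2 and below it in batch 3. *Nupr1* was at 698 and 767 CPM in batches 2 and 3 with DMSO and at 289 to 617 in the others, and *Cebpg* also had its highest values there. Among the 11 synthetases, the median deviation from the mean of the 8 DMSO samples was -0.18 in batch 2 and -0.19 in batch 3 on the log2 scale, and among the 7 transcription factors it was 0.15 and 0.12. For all tested genes the same medians were -0.00 in both batches. With adjudin the values were -0.15 and -0.16 for the synthetases and 0.14 and 0.11 for the transcription factors. The batches were noticed in these values, which are therefore a description. The sums of some other lists also stood apart in the DMSO samples of these batches. The summed ductal markers were highest there (3977 CPM in batch 2 and 3653 in batch 3, against 2583 to 3508 in the others). So were XBP1 and ATF6 targets (5008 and 4773, against 4124 to 4746) and mitochondrial synthetases (1769 and 2038, against 802 to 1228). The largest parts of the XBP1 and ATF6 sum were *Hspa5* (1372 to 1767 CPM with DMSO) and *Hsp90b1* (717 to 1185), both highest in batch 2. *Dnajb9* was highest in batch 3. The other genes of that list were highest elsewhere: *Xbp1*, *Sdf2l1*, *Creld2* and *Manf* in batch 7, *Hyou1* and *Derl3* in batch 1, *Sel1l* and *Edem1* in batch 6 and *Pdia4* in batch 4. The mitochondrial sum was mostly *Lars2*, at 499 to 1740 CPM with DMSO, with *Iars2* next at 59.5 to 72.8. The ductal sum was mostly *Spp1* (1586 CPM in batch 1 to 3013 in batch 2). *Krt19* and *Krt7* were instead highest in batch 7, *Sox9* highest in batch 4 and lowest in batch 2, and *Cftr* highest in batch 3. Batch 3 was the lowest for alpha cell markers (4491 CPM) and delta cell markers (755 CPM). The summed beta, macrophage, stellate, endothelial and acinar markers of both batches lay within the range of the other batches with DMSO. The endothelial sum was instead highest in batches 4, 5 and 6 (532 to 638 CPM with DMSO, against 206 to 318 in the others), as was *Slc7a1* (133 to 135 CPM, against 80.6 to 110). The part of these cell types in the batch differences was not tested.

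**Figure D4:**
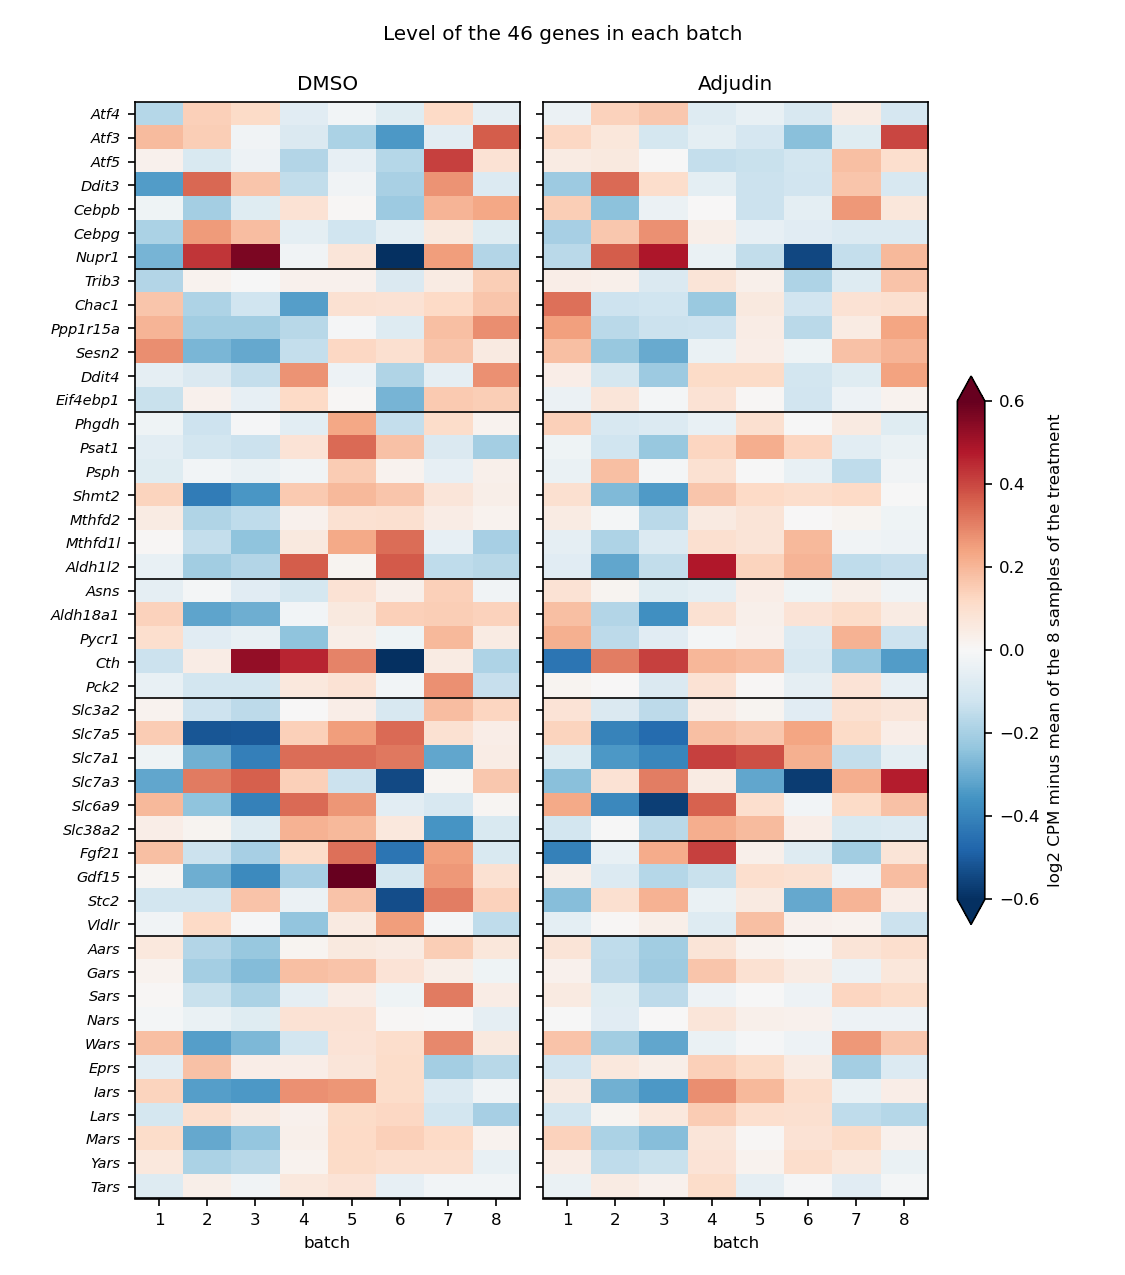
Deviation of each of the 46 genes from its mean over the 8 samples of a treatment, in log2 CPM, by batch and treatment, with genes grouped by role between the lines. Batches 2 and 3 are blue for most synthetases and for *Slc7a5* and red for *Nupr1* and *Cebpg* under both treatments.

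The direction of the small differences with adjudin also varied with the batch. Adjudin was higher than DMSO for 35 of the 46 genes in batch 4 and 33 in batch 1, but for 11 in batch 5 and 19 in batch 7. Over all tested genes the share higher with adjudin stayed between 47.6% and 53.2% in every batch. The genes share their samples within a batch, so these counts are not independent.

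In the other pathway lists no gene passed with edgeR, where 5.24% of all tested genes did. None of 17 eIF2 kinases and other upstream genes passed (unadjusted p under 0.05 in 1 up and 4 down), none of 12 further cytosolic synthetases and their scaffold proteins (0 up and 2 down), none of 17 mitochondrial synthetases (1 up and 1 down) and none of 14 further ATF4 targets (2 up and 0 down). None of 11 other folate and glycine enzymes passed either (2 up and 0 down at an unadjusted p under 0.05), and none of 12 targets of XBP1 and ATF6, the other arms of the unfolded protein response (0 up and 2 down). The medians of these lists ran from -0.06 to 0.05 on the log2 scale. Of the 12 further cytosolic synthetases and scaffold proteins 10 lay below 0, where 51.4% of all tested genes were above 0. The scaffold genes *Aimp1*, *Aimp2* and *Eef1e1* were among the 10, and the synthetase genes *Cars* and *Vars* lay above 0. The arginyl-tRNA synthetase gene *Rars* was lower with adjudin in 8 of 8 batches, without passing (log2 fold change -0.11, edgeR adjusted p = 0.0568). It went from 78.4 to 136 CPM with DMSO (median 90.6) to 76.7 to 116 with adjudin (median 81.6). Among further ATF4 targets, the glutamine carrier gene *Slc1a5* was higher in 8 of 8 batches (log2 fold change 0.10, edgeR adjusted p = 0.0819), and the cystine carrier gene *Slc7a11* had 0.22 (edgeR adjusted p = 0.0961). These last 3 genes were named after their values were seen.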

How the data were processed

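RNA-seq of *db/db* islets, 8 samples with DMSO and 8 with adjudin in 8 batches, was read from the raw counts per gene that the authors deposited, which are whole numbers without normalisation. The submitters' processing notes name HISAT2 2.0.5, featureCounts 1.5.0-p3 and mm10. No source used here gives the strand setting or the annotation release. The deposited table also gives gene lengths, used for CPM per kb. 

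Counts were analysed in R 4.3.3 with edgeR 4.0.16: filterByExpr left 16910 of 54532 genes, TMM factors scaled the libraries, and glmQLFit and glmQLFTest were run with batch and treatment as terms. p values were adjusted by the Benjamini-Hochberg method over all tested genes with a threshold of 0.05. Log2 CPM used a prior count of 2. Standard errors were derived from the log2 fold change and its F statistic, so the 95% intervals are approximate. The batch term was tested in the same fit. Read depth was 24190102 to 34471164 per sample, so 1 CPM is 24.2 reads or more.

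The labels give each batch number once per treatment. After removal of treatment means, same-numbered samples correlated at 0.371 to 0.69, and other pairs at a median of -0.18. No samples of a treatment agreed within sampling noise (lowest chi-square per degree of freedom 9.53). The labels do not say whether the 2 samples of a batch came from the same mice.

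The genes, their roles and the other lists were chosen with earlier results of these data known. All 46 are reported. Lowest, median and highest samples are given for those that passed, for *Atf4* and *Ddit3*, and in each role for the gene with the smallest p and the one with the highest CPM per kb. Of the other pathway lists, genes that passed were to be named, and none did. Cell type markers are given by counts and summed levels. Alternatives were DESeq2 1.42.0, limma-voom (limma 3.58.1), no batch term, other scaling, other filters and each batch left out. The analysis was tested on simulated data.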

Additional observations from a re-analysis of the deposited data

Results flagged for a closer look

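Of 92 sets of 8 samples (46 genes, 2 treatments), 4 had a highest or lowest sample whose gap to the next, over the range, exceeded Dixon's critical value of 0.526, where chance gives about 1 in 20. *Atf5* had 307.1 CPM in the DMSO sample of batch 7, with 245.3 CPM the next highest. *Sars* had 331.0 CPM in the same sample, with 275.1 CPM next. *Psph* had 29.31 CPM in the DMSO sample of batch 5, with 26.95 CPM next. *Mthfd2* had 101.9 CPM in the adjudin sample of batch 3, its lowest, with 111.9 CPM next. None of the genes that passed with adjudin is among them.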

How the results depend on the processing

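Without the replicate block of batches no gene of the 46 passed (0 up and 0 down), and over all genes 1 rose and 0 fell, while the log2 fold changes of *Atf3* (-0.26), *Aldh1l2* (0.16) and *Vldlr* (0.19) stayed in size and lost the call, each with an adjusted p of 1. DESeq2 with the batch term called 4 genes up, adding *Slc7a1* and *Gdf15*. With no filter on low counts 4 rose and 2 fell, adding these 2 and *Nupr1* (lower), with 826 genes up over the whole table. With a stricter filter 3 rose, adding *Slc7a1*. Leaving out each batch gave 1 to 3 genes up and 1 to 1 down, 139 to 546 up and 273 to 525 down over all genes, and 38 to 41 genes that differed between batches. *Aldh1l2* lost its call without batch 4 and *Gdf15* gained one without batch 5 or 7, as *Slc7a1* did without batch 6. *Atf3* and *Vldlr* passed in every fit with the batch term, and *Aldh1l2* in every one but that without batch 4. limma-voom and the other scalings kept the same 3 genes.

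Of 690 log2 fold changes refitted for single genes, 633 kept direction and call and 44 changed sign, in 11 genes whose log2 fold change was 0.03 or less in size and which were not called in any fit. *Slc38a2* and *Nars* turned positive with DESeq2 (0.00129 and 0.00130), with RLE factors (0.00135 and 0.00132), with total counts (0.00452 and 0.00451), without the filter (0.00527 and 0.00521) and with the stricter filter (0.00236 and 0.00226). *Gars* and *Iars* did so with total counts (0.00216 and 0.00204) and without the filter (0.00282 and 0.00271). With single batches left out the ranges were -0.039 to 0.0080 for *Trib3*, -0.035 to 0.021 for *Chac1*, -0.0078 to 0.023 for *Ppp1r15a*, -0.019 to 0.0042 for *Slc3a2*, -0.070 to 0.0070 for *Slc7a3*, -0.0027 to 0.054 for *Slc6a9*, -0.039 to 0.019 for *Slc38a2*, -0.015 to 0.0096 for *Gars*, -0.013 to 0.0087 for *Nars*, -0.010 to 0.0082 for *Iars* and -0.033 to 0.0030 for *Mars*. The cause was not tested. Genes at a few CPM, *Cth* and *Fgf21*, rest on few reads, and their 95% intervals passed 1.25-fold.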
